A study of Homo sapiens with 28 samples.

Results

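The respiratory chain is built from subunits encoded in both the mitochondrial and the nuclear genome, and its messenger RNAs were read here by gene symbol in clones of U937, a human monocytic cell line, that were made to lack 1 subunit of NF-kB. The symbol rule took the 13 protein-coding genes of mitochondrial DNA and the numbered nuclear subunits of complexes I to IV (NDUF, SDH, UQCR and the ubiquitous COX genes), which gave 73 of the 56809 genes in the tables, 13 mitochondrial and 60 nuclear. All 73 passed the filter on low counts that left 18624 genes for testing. Of the nuclear genes, 37 encode subunits of complex I, 4 of complex II, 8 of complex III and 11 of complex IV; NDUFA4, named as a complex I gene, was counted with complex IV, where its protein is now placed. Polyadenylated RNA had been reverse transcribed, amplified and sequenced from 14 clones, each once with and once without lipopolysaccharide (LPS), the Gram-negative cell wall component that activates NF-kB through TLR4. The knockout groups were p50, p52, cREL and RELB with 2 clones each and p65 with 3, and the CTR group had 3 clones made with non-specific guide RNAs. LPS was given at 500 ng/ml and all libraries were labelled 6 h. All groups are clones of the same tumour line, and a difference between groups cannot be told apart from a difference between clones where only 2 or 3 were sequenced.

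Complex I (NADH dehydrogenase), complex II (succinate dehydrogenase), complex III (cytochrome bc1) and complex IV (cytochrome c oxidase) pass electrons from NADH and succinate to oxygen, and complexes I, III and IV pump the protons that drive ATP synthase, complex V. The mitochondrial genome encodes core membrane subunits of complexes I, III, IV and V, is present in many copies per cell and is transcribed by its own polymerase into long RNAs that are cut at transfer RNAs, whereas complex II and most small accessory subunits are nuclear. MT-ND6 is the protein-coding gene read from the light-strand promoter, and its messenger RNA is known to carry little or no poly(A) tail. In activated macrophages, LPS signalling is known to be accompanied by a shift from respiration to glycolysis and by a change in the use of complexes I and II.

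Library depth ran between 12643438 and 22122428 estimated counts. Sample batch A, as the labels name it, held p50-2, p52-2, p65-1, cREL-2 and RELB-1, and no CTR clone. Batch B held p50-1, p52-1, cREL-1, RELB-2 and CTR-2, and batch C held p65-2, p65-3, CTR-1 and CTR-3. RELA messenger RNA, the transcript of p65, was 3.20 and 5.08 TPM with LPS and 5.13 and 8.19 TPM untreated in p65-2 and p65-3, against 26.1 to 38.3 TPM with LPS and 23.2 to 31.1 TPM untreated in CTR. The clone labelled p65-1 had 52.1 TPM with LPS and 43.7 TPM untreated, above every CTR library. A guide can disrupt a protein without lowering its transcript. The medians of p65 over each genome are also given below without that clone. The counts by sign, by unadjusted p and of libraries that do not overlap include it. So do the medians by complex and by length. RELB messenger RNA in untreated cells was 2.48 and 5.83 TPM in the RELB clones, against 3.80, 14.1 and 5.81 TPM in CTR, so it did not set the groups apart. The untreated libraries of p65-3 and RELB-2 stood apart for the nuclear members. In p65-3 the median deviation of the 60 genes from their means over all libraries was −1.74 on the log2 scale. For p65 and RELB against CTR, the medians over each genome are also given without these clones. Of the monocytic markers, LYZ averaged 1047 TPM, CD68 146 TPM and CD33 124 TPM, while MPO was at 0.04 TPM. The others listed were CD4 at 113 TPM, FCGR1A at 69.8 TPM, CSF1R at 13.8 TPM, SPI1 at 11.1 TPM, CEBPA at 8.72 TPM and ITGAM at 5.21 TPM. The T cell marker CD3D was at 0 in all libraries, although NKG7, listed with T and NK cells, averaged 340 TPM. The 10 genes of that list summed to 106 to 317 TPM in p65 libraries and 281 to 530 TPM in CTR libraries. The sums were 161 to 355 TPM in RELB, 373 to 500 TPM in p50, 327 to 464 TPM in p52 and 330 to 442 TPM in cREL. These sums largely follow NKG7, which ran between 99.7 and 519 TPM, while IL7R averaged 14.2 TPM and TRAC 3.86 TPM. The part of this in the results was not tested.

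Promoter sequence, the 250 bases before the transcription start in the RefSeq table for GRCh38.p14, was available for 51 of the 60 nuclear members. The stretches below are shown because they hold letters of the factors best known at these genes and of the factor that was knocked out. The motifs were nuclear respiratory factor 1 (NRF1; GCGCA, any base, then GCGC), ETS factors such as GABP (CCGGAAG) and NF-kB (GGG, any 3 bases, then TTCC). Both strands were searched, and every match is in capitals. SDHA, the flavoprotein of complex II, is on the plus strand at chr5:218070-218319 and holds 4 NRF1 matches. UQCR11, a small subunit of complex III, is on the minus strand at chr19:1605463-1605712 and holds 2 NRF1 and 2 ETS matches. NDUFA6, an accessory subunit of complex I, is on the minus strand at chr22:42090773-42091022 and holds 1 NF-kB match.

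SDHA: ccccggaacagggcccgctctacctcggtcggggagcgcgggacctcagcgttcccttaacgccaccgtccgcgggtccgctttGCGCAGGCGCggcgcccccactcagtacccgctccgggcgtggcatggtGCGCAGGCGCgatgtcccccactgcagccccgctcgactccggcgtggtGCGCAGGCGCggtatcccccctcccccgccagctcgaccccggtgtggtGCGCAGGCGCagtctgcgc
UQCR11: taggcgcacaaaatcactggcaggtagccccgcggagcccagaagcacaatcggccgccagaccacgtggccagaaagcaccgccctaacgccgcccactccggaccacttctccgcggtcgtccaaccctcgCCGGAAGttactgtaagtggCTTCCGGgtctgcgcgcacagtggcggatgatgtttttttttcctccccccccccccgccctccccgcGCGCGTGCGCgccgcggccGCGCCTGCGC
NDUFA6: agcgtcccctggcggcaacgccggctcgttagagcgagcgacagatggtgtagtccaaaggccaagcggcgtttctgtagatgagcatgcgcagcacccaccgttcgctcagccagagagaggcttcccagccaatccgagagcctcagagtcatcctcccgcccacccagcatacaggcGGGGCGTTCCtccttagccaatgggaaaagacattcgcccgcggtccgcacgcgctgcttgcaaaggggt

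The NRF1 letters occurred in 10 of the 51 member promoters (19.6%), against 5.50% of the 27254 other promoters in the table, and the ETS letters in 14 (27.5%) against 8.78%. The NF-kB letters occurred in 6 (11.8%), in NDUFA10, NDUFA5, NDUFA6, NDUFB7, NDUFS7 and UQCRC2, against 5.60% of the others. TATAAA was found in 5 (9.80%, against 11.1%) and CCAAT in 14 (27.5%, against 33.0%), and the median GC content was 60.8% against 58%. A match describes the letters and is not a bound site.

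In the mitochondrial genome some neighbouring genes share bases, which limits how their counts can be separated. MT-ATP8 and MT-ATP6, both subunits of complex V, overlap over 46 bases at chrM:8527-8572 on the plus strand, shown from the GENCODE release 29 transcripts because reads there belong to both genes.

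MT-ATP8 and MT-ATP6 overlap: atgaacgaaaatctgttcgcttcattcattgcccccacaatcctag

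MT-ND4L and MT-ND4 overlap over 7 bases (chrM:10760-10766). Each of these pairs is read from 1 messenger RNA, yet the deposited TPM differed within them: MT-ND4L averaged 11999 TPM and MT-ND4 5892 TPM over the 28 libraries, and MT-ATP8 2290 TPM and MT-ATP6 3406 TPM. The median effective lengths used for the TPM were 98.2 and 1146 bases for MT-ND4L and MT-ND4, and 52.9 and 450 bases for MT-ATP8 and MT-ATP6, so levels of the shortest genes rest on a small denominator. The nuclear pseudogene MTATP6P1, 98.5% identical to MT-ATP6 over 681 bases, took 12.1 to 13.8% of the estimated counts of that pair per library, so the level of MT-ATP6 is uncertain by about that share. MTND2P28 took 0.47 to 0.82% of the pair with MT-ND2.

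Per unit of length, the mitochondrial messenger RNAs were far above the nuclear ones (the plot of levels by complex). Apart from MT-ND3 at 100.5 TPM, the mean levels of the mitochondrial members lay between 1333 TPM for MT-ND6 and 11999 TPM for MT-ND4L, with the complex IV subunits MT-CO3 at 10003 TPM, MT-CO1 at 9638 TPM and MT-CO2 at 6395 TPM. MT-CYB, the mitochondrial subunit of complex III, averaged 5849 TPM, and the remaining complex I subunits MT-ND1, MT-ND5 and MT-ND2 averaged 4983, 2871 and 2855 TPM. In complex I, the nuclear means ran between 29.5 TPM for NDUFA2 and 549 TPM for NDUFB9, both accessory subunits. In complex II they ran between 199 TPM for SDHA and 346 TPM for SDHC, a membrane anchor. In complex III they ran between 52.1 TPM for UQCRB and 1010 TPM for UQCRC1, a core protein, and in complex IV between 78.9 TPM for NDUFA4 and 823 TPM for COX5A.

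**Figure D1:**
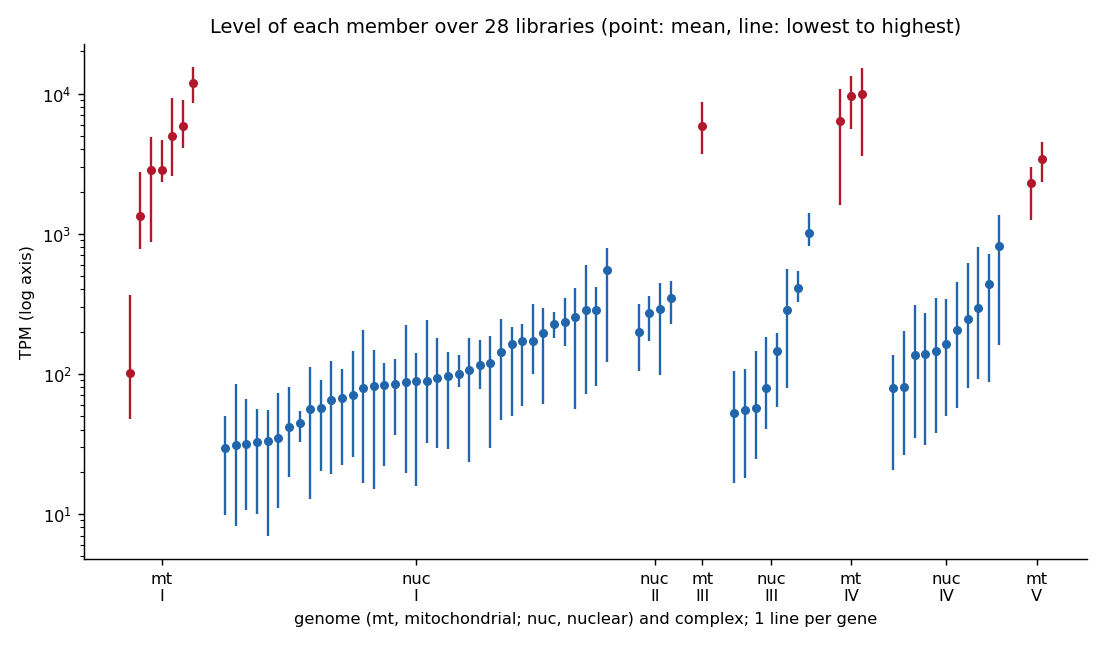
Level of each of the 73 genes in TPM (vertical log axis), grouped along the horizontal axis by genome (mt, mitochondrial, red; nuc, nuclear, blue) and complex, with 1 line per gene; points are means and lines run between the lowest and highest of the 28 libraries. The mitochondrial genes lie between 1333 and 11999 TPM except MT-ND3 at 100.5 TPM, and the nuclear means lie between 29.5 TPM (NDUFA2) and 1010 TPM (UQCRC1).

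How far a gene varied between libraries differed by complex. The median ratio of highest to lowest TPM over the 28 libraries was 8.25 for the 11 nuclear genes of complex IV, 5.64 for the 37 of complex I, 5.24 for the 8 of complex III and 2.55 for the 4 of complex II. The narrowest nuclear gene was NDUFV1, the subunit of complex I that binds FMN, at 1.54, and the narrowest of complex III was UQCRC2, a core protein, at 1.67. The widest was NDUFB2, an accessory subunit of complex I, at 12.4. Among the mitochondrial genes MT-ND4L spanned 1.79 and MT-CO2 6.66, and MT-ND3 7.72, the last through 1 library, cREL-2 untreated, at 367 TPM. Summed nuclear complex IV messenger RNA ran between 698 and 5194 TPM over the libraries, whereas summed complex II ran between 810 and 1413 TPM.

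Summed over the 13 genes, mitochondrial messenger RNA made up 45377 to 84052 TPM (2.09 to 4.32% of estimated counts), and the 60 nuclear genes made up 5796 to 15080 TPM (0.357 to 0.721% of estimated counts). In untreated cells the nuclear sum was 11984, 8782 and 5796 TPM in the p65 clones 1 to 3 and 11698 and 6948 TPM in the RELB clones 1 and 2, against 11549, 11602 and 9741 TPM in the CTR clones 1 to 3. The p50 clones had 10294 and 13999 TPM, the p52 clones 11700 and 10020 TPM and the cREL clones 10368 and 15080 TPM. Each knockout group thus overlapped CTR. In bulk RNA, fewer cells with these transcripts and less of them per cell cannot be told apart. The ratio of the mitochondrial to the nuclear sum was 4.90, 7.82 and 10.97 in the p65 clones and 7.28, 5.24 and 8.63 in the CTR clones. The CTR values lay inside the span of the p65 values, and p65-3 had the highest ratio of all 28 libraries. Within batch B, which has 1 clone of CTR and of 4 knockouts and so no test, the untreated nuclear sums were 10294 TPM in p50-1, 11700 TPM in p52-1, 10368 TPM in cREL-1 and 6948 TPM in RELB-2, against 11602 TPM in CTR-2.

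**Figure D2:**
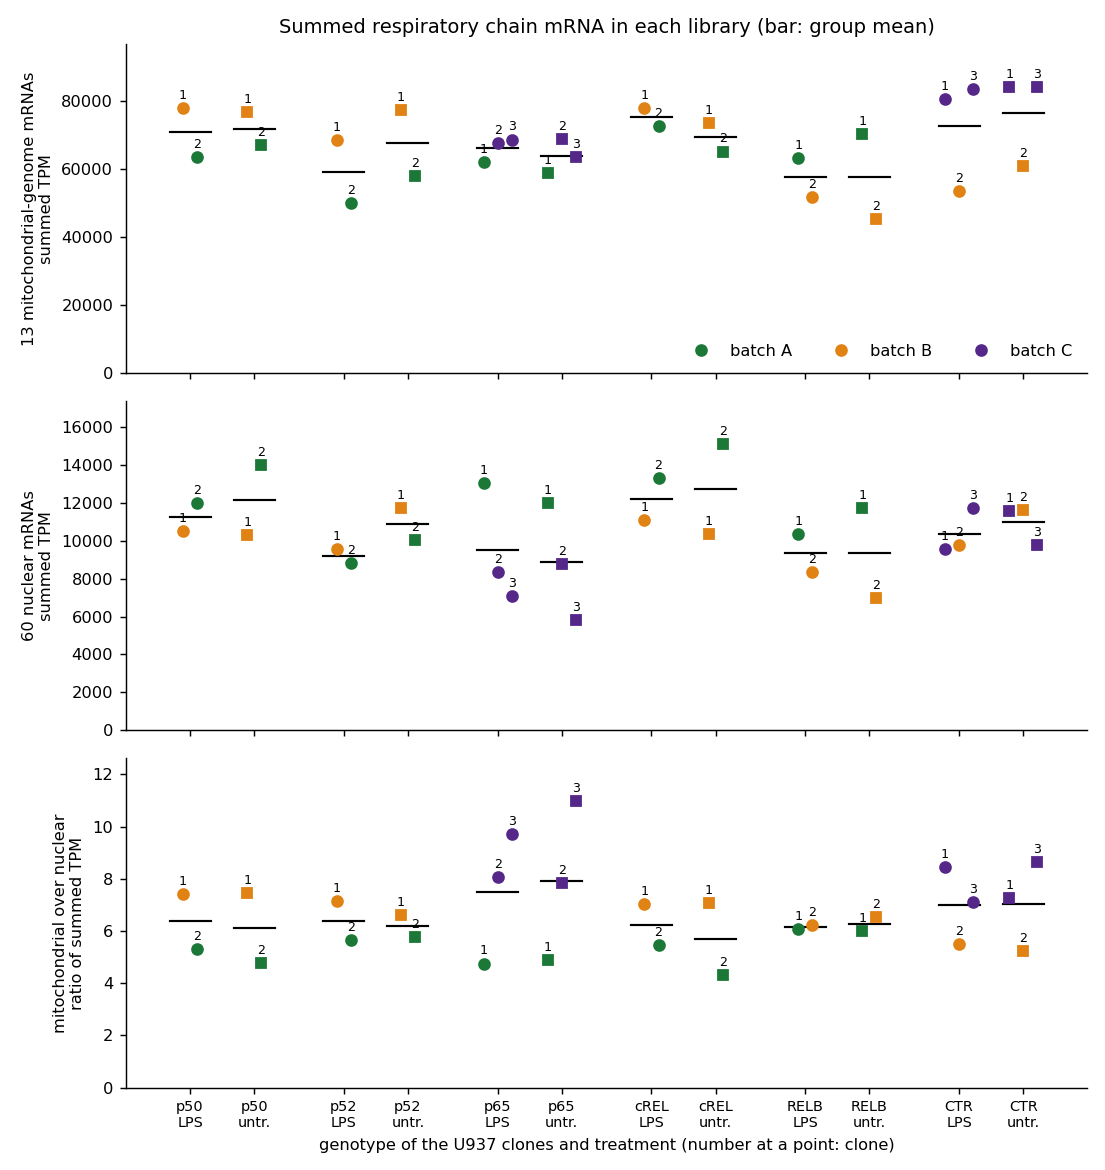
Summed TPM of the 13 mitochondrial members (top), of the 60 nuclear members (middle) and their ratio (bottom) in each of the 28 libraries, by genotype and treatment (untr., untreated); each point is 1 library, its number the clone, its colour the sample batch, and bars are group means. The nuclear sum is lowest in p65-3 untreated at 5796 TPM and highest in cREL-2 untreated at 15080 TPM, and the ratio is highest in p65-3 untreated at 10.97.

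The comparison of p65 knockout with CTR in untreated cells asked whether loss of p65 changes basal respiratory chain expression. No member passed: edgeR called 0 of 13 mitochondrial and 0 of 60 nuclear members (0.0537% of all genes were called), and DESeq2 called 0 as well. At an unadjusted p under 0.05 there were 6 of 13 mitochondrial and 28 of 60 nuclear members (46.2 and 46.7%), against 12.9% of all genes tested. By sign, 11 mitochondrial and 56 nuclear members were lower in p65, against 8976 of 18624 genes, with median log2 folds of −0.67 and −0.89 against 0.02 over all genes tested. These members share the same 6 libraries of p65 and CTR, and through the batch term their folds also draw on libraries of the other genotypes. Their counts are a description of those libraries.

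Among the mitochondrial messenger RNAs, the values divided by gene. MT-ND2 was 1858, 2334 and 869 TPM in p65 clones 1 to 3 and 3783, 2952 and 2833 TPM in CTR clones 1 to 3. MT-CO2, which carries the copper centre that accepts electrons, was 5680, 5026 and 1613 TPM in p65 and 8077, 7250 and 6955 TPM in CTR. MT-CO3 was 8926, 8738 and 3590 TPM in p65 and 11560, 10899 and 10261 TPM in CTR. In each of these 3 genes all p65 libraries lay below all CTR libraries, and p65-3 was the lowest. The log2 folds, with batch as a term, were −1.15 ± 0.45 for MT-ND2 (SE, n = 3 clones each, edgeR adjusted p = 0.296), −1.08 ± 0.55 for MT-CO2 (adjusted p = 0.425) and −0.83 ± 0.38 for MT-CO3 (adjusted p = 0.370). Counted in CPM, the counts scaled to library size with TMM, 3 mitochondrial and 8 nuclear members had every p65 library below every CTR library, 11 of 73 in all, against 5.17% of all genes tested. Other mitochondrial genes of the same libraries did not show this. MT-ND4 was 4763, 7242 and 9016 TPM in p65 against 6889, 5267 and 7705 TPM in CTR, MT-ND5 was 2331, 3540 and 4646 TPM against 3256, 2589 and 3201 TPM, and MT-ND6 was 996, 1854 and 2756 TPM against 1694, 1192 and 1751 TPM. The groups overlapped in all 3, with log2 folds of −0.08 ± 0.16, −0.01 ± 0.13 and 0.08 ± 0.16 (adjusted p = 0.887, 0.990 and 0.879). The library of p65-3 untreated held the highest level of all 28 for 4 mitochondrial members and the lowest for 5. MT-CYB stood between these sets, with 3696, 7779 and 3908 TPM in p65 against 8741, 5195 and 7566 TPM in CTR (−0.67 ± 0.24, adjusted p = 0.267). MT-ND1 had 4359, 3536 and 4772 TPM against 9006, 3667 and 9340 TPM (−0.89 ± 0.41, adjusted p = 0.370). Within batch C, p65 with 3536 and 4772 TPM lay below CTR with 9006 and 9340 TPM. In batch C alone the log2 fold of MT-ND1 was −1.45 ± 0.19 (edgeR adjusted p = 0.388), with the lowest unadjusted p of the 73 members in that fit.

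The nuclear members lay lower in complex I and complex IV than in complex II. In untreated p65 against CTR the median log2 folds were −0.90 over the 37 genes of complex I, −0.41 over the 4 of complex II, −0.67 over the 8 of complex III and −0.97 over the 11 of complex IV, where all 11 were lower by sign. NDUFA12, an accessory subunit of complex I, had 118, 57.4 and 29.3 TPM in p65 and 179, 98.9 and 87.9 TPM in CTR, with a log2 fold of −1.39 ± 0.49 (SE, n = 3 each, adjusted p = 0.266). COX6A1, the ubiquitous isoform of a complex IV subunit, had 170, 86.3 and 30.96 TPM in p65 and 270, 138 and 119 TPM in CTR (−1.39 ± 0.52, adjusted p = 0.286). In both, p65-3 was the lowest library and the clone labelled p65-1 lay within the CTR range. COX5A, a nuclear subunit of complex IV, had 886, 598 and 162 TPM in p65 and 819, 1053 and 756 TPM in CTR (−1.01 ± 0.41, adjusted p = 0.311). NDUFB6, of the membrane arm of complex I, had the lowest adjusted p among the nuclear members at 0.244, with 34.8, 30.1 and 6.97 TPM in p65 and 37.3, 46.6 and 30.4 TPM in CTR (−1.23 ± 0.41). NDUFA4 had 110, 39.4 and 20.7 TPM in p65 and 84.1, 84.7 and 55.2 TPM in CTR (−1.08 ± 0.51, adjusted p = 0.388).

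The subunits of complex II differed in sign. SDHB, its iron-sulfur subunit, was 211, 300 and 98.4 TPM in p65 and 321, 412 and 335 TPM in CTR, all p65 libraries below all CTR libraries (−1.02 ± 0.36, adjusted p = 0.271). SDHA, the catalytic flavoprotein, was 237, 248 and 313 TPM in p65 and 177, 207 and 116 TPM in CTR, all p65 libraries above all CTR libraries (0.44 ± 0.21, adjusted p = 0.397). It was the 1 member with every p65 library above every CTR library, where 5.32% of all genes had that pattern. The membrane anchors SDHC (−0.39 ± 0.18, adjusted p = 0.378) and SDHD (−0.44 ± 0.18, adjusted p = 0.309) lay nearer to CTR. Some core subunits of other complexes had folds near 0. UQCRC1 was 949, 1137 and 1416 TPM in p65 and 926, 986 and 968 TPM in CTR (0.03 ± 0.13, adjusted p = 0.944). NDUFS1, the largest iron-sulfur subunit of complex I, was 138, 126 and 174 TPM against 106, 118 and 126 TPM (0.03 ± 0.14, adjusted p = 0.964). The TPM are not adjusted for batch and the folds are, so the levels and folds of these genes differ.

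The size of these folds depended on which clones were kept. Without the clone labelled p65-1 the medians were −0.68 over the mitochondrial and −1.17 over the nuclear members, and without p65-2 they were −0.60 and −1.20. Without p65-2, MT-CYB, NDUFA6, NDUFB5, SDHB, SDHD and UQCRFS1 passed as lower, SDHB with a log2 fold of −1.76 (edgeR adjusted p = 0.0157). The share of all genes called in that fit is not given here, so these calls cannot be set against it. Without p65-3 the medians were −0.36 and −0.45. In batch C alone, where p65-2 and p65-3 stand against CTR-1 and CTR-3, they were −0.72 and −1.13, and with no batch term they were −0.67 and −0.51.

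In RELB against CTR untreated, edgeR called 0 of 13 and 0 of 60 members (0.0107% of all genes), as did DESeq2, and 0 mitochondrial and 18 nuclear members (30%) had an unadjusted p under 0.05, against 11.1% of all genes. By sign 57 of 60 nuclear and 11 of 13 mitochondrial members were lower, with medians of −0.98 and −0.19 against 0.01 over all genes tested. NDUFB2 was 95.0 and 16.7 TPM in RELB-1 and RELB-2, against 90.8, 79.7 and 70.7 TPM in CTR (−1.48 ± 0.55, SE, n = 2 and 3, adjusted p = 0.337). NDUFS5, an accessory subunit of complex I, was 299.97 and 84.5 TPM in RELB, against 348, 277 and 260 TPM in CTR (−1.50 ± 0.62, adjusted p = 0.390). COX8A, a small subunit of complex IV, was 155 and 54.3 TPM in RELB, against 197, 140 and 106 TPM in CTR (−1.38 ± 0.66, adjusted p = 0.453). In all 3 genes RELB-2 lay below every CTR library, while RELB-1 lay inside the CTR range for NDUFS5 and COX8A and above it for NDUFB2. NDUFV3, an accessory subunit of complex I, had 38.8 and 47.5 TPM in RELB and 38.8, 32.8 and 45.2 TPM in CTR (0.11 ± 0.21, adjusted p = 0.893). The nuclear median moved to −0.43 without RELB-2, −1.58 without RELB-1, −0.46 without the clone labelled p65-1 and −1.45 without CTR-2. RELB was sequenced in batches A and B alone, as were p50, p52 and cREL, and the folds of these knockouts over CTR depend on the batch term. The mitochondrial median of RELB was 0.22 without RELB-2 and −0.63 without RELB-1. Each of these fits leaves 1 RELB clone. Without both p65-3 and RELB-2, the mitochondrial and nuclear medians were −0.30 and −0.36 in p65 and 0.27 and −0.23 in RELB.

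By median, the nuclear members of the other knockouts lay nearer to CTR in untreated cells (−0.06 in p50, −0.29 in p52 and −0.08 in cREL). By sign 42, 54 and 46 of the 60 were lower. In p50, p52 and cREL edgeR called 0 members, where 0.0% of all genes were called, and DESeq2 called 0. At an unadjusted p under 0.05 there were 1, 1 and 1 members, against 6.42, 7.60 and 5.78% of all genes. In p50 and cREL, MT-CO1, the catalytic subunit of complex IV, had the lowest adjusted p of the mitochondrial members. It was 10827 and 9036 TPM in p50 and 11670 and 11168 TPM in cREL, against 9366, 5587 and 11880 TPM in CTR, with log2 folds of 0.67 ± 0.23 (adjusted p = 0.685) and 0.79 ± 0.23 (adjusted p = 0.688). The CTR range, set by CTR-2 and CTR-3, held all 4 of these libraries. All these comparisons share the same 3 CTR clones. Members whose libraries did not overlap CTR were counted in each of these knockouts. In p50 untreated, 3 nuclear members lay below CTR (9.4% of all genes) and 4 members above (10.2%). In p52 untreated 3 nuclear members lay below (9.64%) and NDUFV3 above (12.8%). In cREL untreated 5 nuclear members lay below (8.87%) and NDUFB4 above (9.61%). In RELB untreated 8 nuclear members and MT-ND6 lay below (11.7%) and 0 above (15.5%). Over the mean of the 5 knockouts, edgeR called 0 members (0.0322% of all genes) and DESeq2 called 0. At an unadjusted p under 0.05 there were 1 mitochondrial and 1 nuclear member, against 8.81% of all genes. The medians were −0.07 over the mitochondrial and −0.49 over the nuclear members. With no batch term they were −0.32 and −0.10, so which genome lay lower turned with that term.

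With LPS the same comparisons gave no member that passed with all clones kept. edgeR called 0 of 73 in p50, p52, p65, cREL and RELB against CTR (0.129, 0.0698, 0.993, 0.199 and 0.0483% of all genes), as did DESeq2. In the same order 2, 5, 7, 3 and 2 members had an unadjusted p under 0.05, against 9.90, 9.87, 12.4, 9.14 and 9.80% of all genes. Nuclear members were lower by sign in 54 of 60 genes in p52, p65 and RELB alike, with medians of −0.68, −0.68 and −0.77, while the mitochondrial medians were −0.18, −0.29 and −0.15. The p52 folds, like those of RELB, depend on the batch term. Within batch B with LPS, the median deviation of the nuclear members was −0.11 in p52-1 and −0.53 in RELB-2, against −0.29 in CTR-2. So p52-1 did not lie below CTR-2 there, and no test was made. Without the clone labelled p65-1, the p65 medians were −0.98 over the nuclear and −0.47 over the mitochondrial members, without p65-3 −0.33 and −0.29, without CTR-2 −1.04 and −0.43, and without CTR-3 −0.34 and −0.35. In batch C alone they were −1.10 and −0.53, with 0 members called. MT-ND1 had the lowest unadjusted p of the members in that fit, with a log2 fold of −1.40 ± 0.19 (edgeR adjusted p = 0.0683). The RELB medians were −0.64 and 0.12 without RELB-2, −0.27 and 0.04 without the clone labelled p65-1, and −1.45 and −0.43 without CTR-2. COX7B, a small subunit of complex IV, was 564, 92.2 and 109.7 TPM in p65 with LPS and 267, 225 and 363 TPM in CTR with LPS. Its log2 fold was −0.88 (edgeR adjusted p = 0.356), and it passed without the clone labelled p65-1 (−1.46, adjusted p = 0.0480) and without CTR-2 (−1.46, adjusted p = 0.0244). The shares of all genes called in those fits are not given here. For COX7B the clone labelled p65-1 was above every CTR library and the other p65 clones below. SDHB with LPS was 233, 258 and 196 TPM in p65 and 307, 419 and 280 TPM in CTR (−0.77 ± 0.36, SE, n = 3 each, adjusted p = 0.390), again with no overlap. It was joined by MT-ND2, with 2009, 2130 and 1971 TPM in p65 and 3859, 2409 and 2613 TPM in CTR (−0.75 ± 0.45, adjusted p = 0.521). These were the 2 members with every p65 library below every CTR library with LPS, against 6.93% of all genes, and 0 members lay above (6.58%). In p52, 11 nuclear members and no mitochondrial one had that pattern, against 12.2% of all genes, and SDHA lay above CTR (12.7%). Among the 11 was COX5A, with 701 and 605 TPM in p52 and 635, 787 and 995 TPM in CTR (−0.79 ± 0.50, adjusted p = 0.660). COX5A overlaps CTR in TPM and not in CPM. In cREL, MT-CO1 was 11753 and 10213 TPM, against 9299, 6069 and 9868 TPM in CTR, the groups apart, with a log2 fold of 0.82 ± 0.23 (adjusted p = 0.191). It was 1 of 5 members above CTR there (11.2% of all genes), and 3 nuclear members lay below (11.6%). In p50 with LPS 2 nuclear members lay below (11.9%) and NDUFA6 above (10.9%), and in RELB 3 nuclear members and MT-ND6 lay below (12%) and 0 above (12.4%). Over the mean of the 5 knockouts with LPS, edgeR called 0 members (0.838% of all genes) and DESeq2 called 0. At an unadjusted p under 0.05 there were MT-CO1 (0.47 ± 0.17, adjusted p = 0.247) and NDUFV3 (0.36 ± 0.16, adjusted p = 0.352), against 11.8% of all genes.

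The folds of the nuclear members ran with the length of the messenger RNA (the plot of fold against length). Effective length is the number of positions at which a fragment can start, as the authors deposited it. In untreated p65 against CTR, the median log2 fold was −0.96 for the 16 nuclear members under 400 bases, −0.94 for the 26 of 400 to 800 bases, −0.47 for the 14 of 800 to 1600 bases and −0.04 for the 4 above 1600 bases. Protein-coding genes outside the chain with a mean of at least 20 CPM had −0.88 (54 genes), −0.85 (430), −0.14 (1816) and 0.10 (4358) in the same classes. In RELB the classes gave −1.25, −0.99, −0.45 and −0.31 for the members and −1.14, −0.70, −0.15 and −0.03 for the other genes. In both knockouts the short genes of other functions were lower along with the short members. In p65, 54 of 54 of the other genes under 400 bases were lower by sign, as were 16 of 16 members, and above 1600 bases 1462 of 4358 other genes and 2 of 4 members were lower. The part of length in the folds of single members was not tested. Across genes, Spearman's rho between fold and length was 0.50 over the 60 nuclear members and 0.45 over the 6658 other genes in p65, and 0.67 and 0.30 in RELB; genes are not independent replicates. Complex IV had the lowest median effective length of the nuclear members, 347 bases, against 567 bases in complex I, 949 in complex III and 1007 in complex II. The shortest single nuclear member was NDUFB1 of complex I, at 165 bases.

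Among the 13 mitochondrial members in untreated p65, the 3 longest, MT-ND4, MT-CO1 and MT-ND5, had log2 folds of −0.08, 0.06 and −0.01. The 6 of 450 to 909 bases lay between −1.15 for MT-ND2 and −0.67 for MT-CYB. Of the 4 with the shortest effective lengths, MT-ATP8 had −0.78 ± 0.27. MT-ND4L, MT-ND3 and MT-ND6 had −0.23 ± 0.18, −0.16 ± 0.38 and 0.08 ± 0.16. MT-ND4L shares 1 messenger RNA with MT-ND4, and MT-ATP8 with MT-ATP6, so their effective lengths are not those of the whole molecule. MT-ND4L reached its highest level of the 28 libraries, 15396 TPM, in p65-3 untreated.

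**Figure D3:**
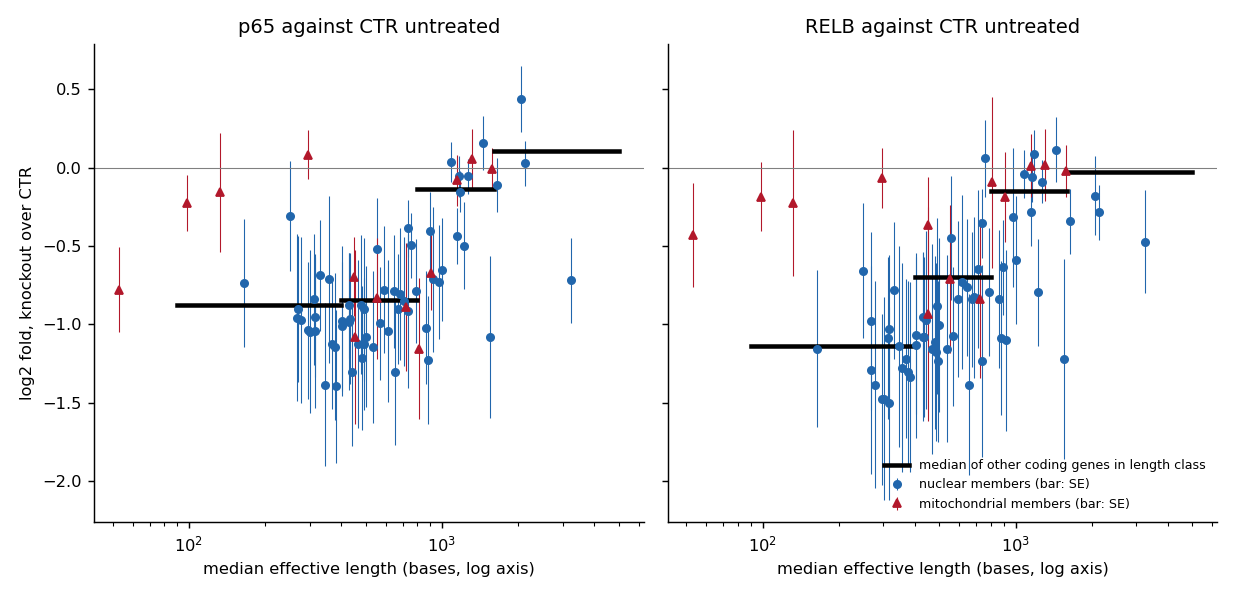
Log2 fold of knockout over CTR in untreated cells (vertical axis) against median effective length in bases (horizontal log axis), for p65 (left) and RELB (right); points are the 60 nuclear (blue circles) and 13 mitochondrial (red triangles) members with the model's SE, and black bars are medians of other protein-coding genes of at least 20 CPM in 4 length classes. Nuclear members under 400 bases have medians of −0.96 and −1.25 and those above 1600 bases −0.04 and −0.31.

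The same ordering held in the spread over all libraries. The SD of log2 CPM had a median of 0.76, 0.67, 0.46 and 0.27 in the nuclear members of the 4 classes, short to long, and 0.72, 0.57, 0.31 and 0.31 in the other genes. Ribosomal protein genes, another set of short and abundant messenger RNAs (80 genes, median effective length 480 bases), had a median deviation of −1.73 in p65-3 untreated and of 1.08 in cREL-2 untreated, the libraries where the nuclear members deviated by −1.74 and 0.78. The mitochondrial members deviated by −0.80 in p65-3 untreated, and their highest median deviation, 0.50, was in CTR-3 with LPS. The library p65-3 untreated held the lowest level of 43 of the 60 nuclear members and cREL-2 untreated the highest of 30. Of the 28 libraries, p65-3 untreated had the highest total count, 22122428, and RELB-2 untreated the lowest, 12643438, and the part of depth in this was not tested. RNA quality values were not analysed here.

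**Figure D4:**
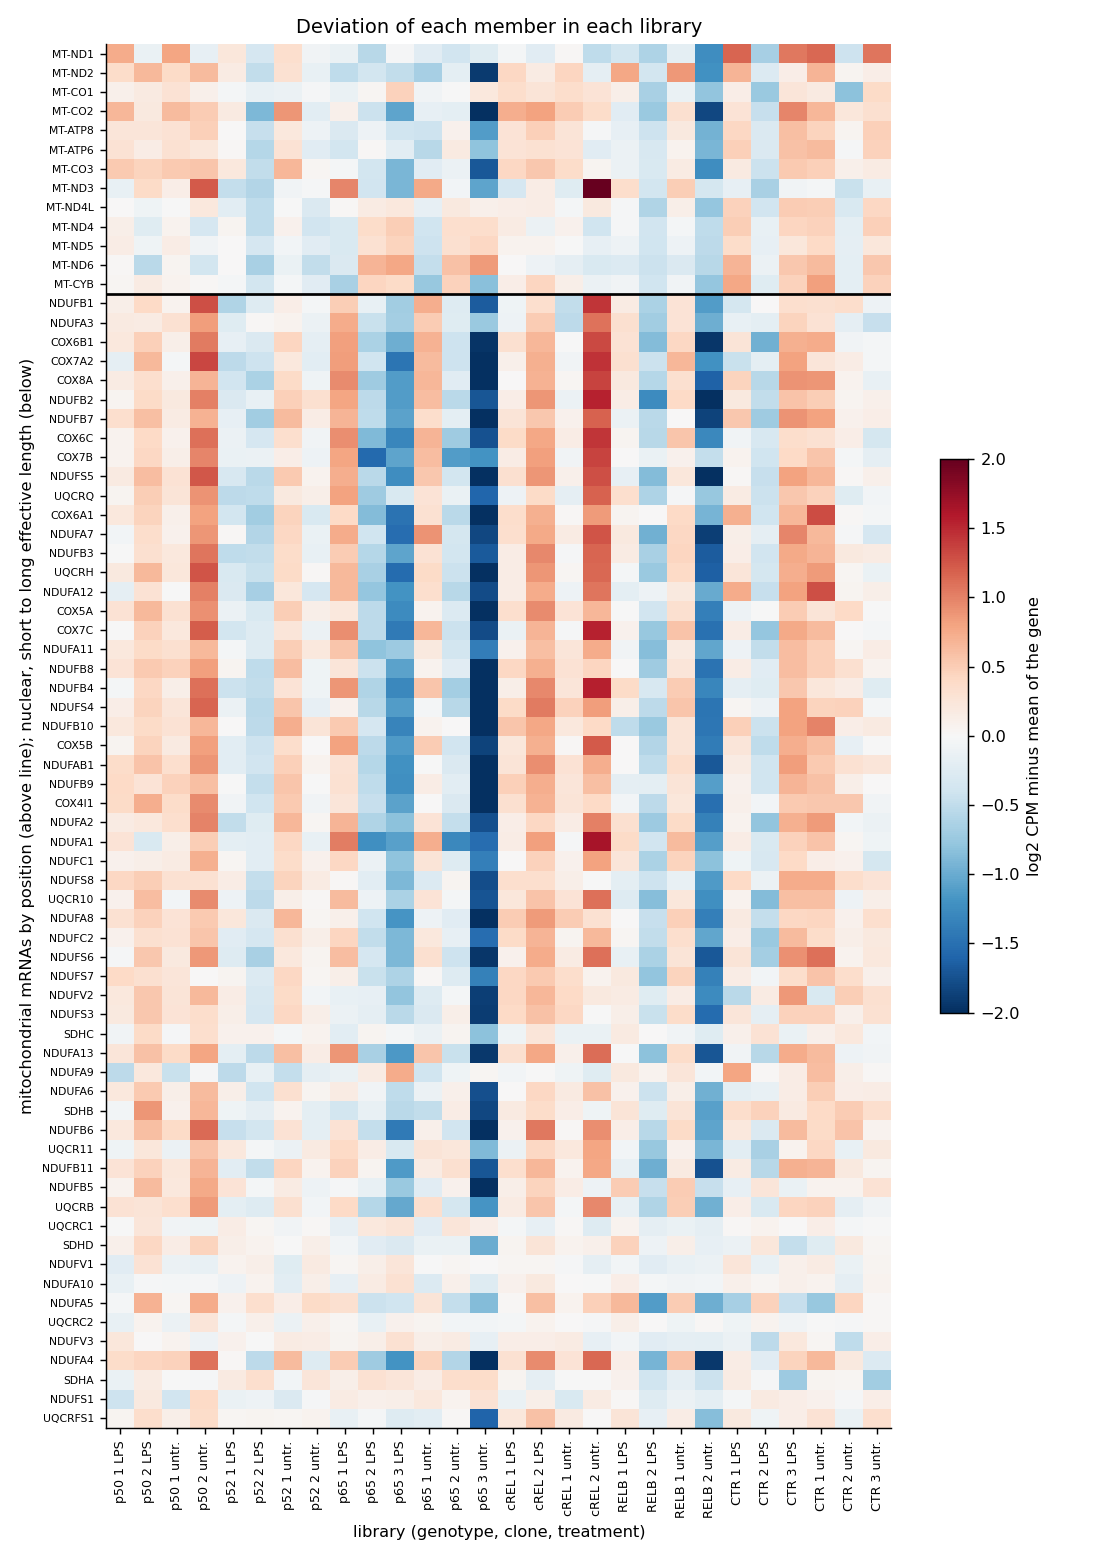
Log2 CPM of each member minus its mean over the 28 libraries (colour, limited to 2 either way); rows are the 13 mitochondrial genes in genome order and, under the line, the 60 nuclear genes by effective length, short at the top, with 1 gene left out, and columns are libraries by genotype, clone and treatment (untr., untreated). The short nuclear rows are blue in p65-3 and RELB-2 untreated and red in cREL-2 untreated, the rows of NDUFV1 and UQCRC2 stay near white, and the mitochondrial rows divide within p65-3 untreated.

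By median, members of one genome tracked each other more than they tracked the other genome, though the pairs overlapped widely. Over the 28 libraries the median Pearson correlation of log2 CPM was 0.79 over 1770 nuclear pairs, 0.54 over 78 mitochondrial pairs and 0.39 over 780 mixed pairs. The quartiles were 0.21 and 0.90, 0.30 and 0.72, and 0.02 and 0.68 in the same order. Mitochondrial pairs ran between −0.42 and 0.97 and mixed pairs between −0.63 and 0.97. Nuclear complex IV with nuclear complex I genes reached 0.88 (407 pairs), and complex II with the other nuclear genes 0.45 (224 pairs). The libraries are those of the same 14 clones and 3 batches, and the pairs share them.

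No member passed the test between LPS and untreated cells. The question was whether TLR4 stimulation changes respiratory chain messenger RNA. Of the 73 members, edgeR called 0 averaged over the 6 genotypes (0.403% of all genes) and 0 in CTR alone (0.408%). In all, 1 mitochondrial and 0 nuclear members of the average had an unadjusted p under 0.05, against 4.25% of all genes. No member did in CTR, against 5.11%, and DESeq2 called 0 in both. The medians of the average were 0.01 over the mitochondrial and −0.08 over the nuclear members. The mitochondrial gene furthest from 0 was MT-ND3, with −0.39 ± 0.18 (SE, 14 clones, adjusted p = 1), lower with LPS in 11 of 14 clones; the clone cREL-2 had 90.7 TPM with LPS and 367 TPM untreated. At the other end MT-CYB had 0.12 ± 0.11. NDUFA10, an accessory subunit of complex I, was higher with LPS in 12 of 14 clones, and 2.28% of all genes were higher in at least 12. Its mean change was 0.10 ± 0.16 on the log2 scale (SD, n = 14). Within single clones the nuclear members shifted together and in both directions: their median change with LPS was 0.72 in p65-3, 0.72 in RELB-2 and 0.55 in CTR-3, and −0.52 in p52-1, −0.40 in CTR-2 and −0.37 in CTR-1. The CTR clones thus differed in sign. The difference in LPS response between a knockout and CTR had 0 members called by edgeR for p50, p52, p65, cREL and RELB (0.0, 0.0, 0.0161, 0.0 and 0.0% of all genes) and 0 by DESeq2. It had 0 members at an unadjusted p under 0.05, against 2.95, 2.55, 2.79, 3.01 and 2.14% of all genes. Within each single knockout, edgeR and DESeq2 called 0 members with LPS against untreated (0.0161, 0.0215, 0.0268, 0.0107 and 0.129% of all genes in p50, p52, p65, cREL and RELB). At an unadjusted p under 0.05 there were 0, 0, 1, 1 and 0 members, against 1.79, 1.96, 1.56, 1.72 and 2.89% of all genes.

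Members passed the test between sample batches, a comparison chosen after the values had been seen. Genotype and treatment were terms of the same model, and the labels call these sample batches without saying what they share. In batch C against batch B, 6 of 13 mitochondrial and 1 of 60 nuclear members were higher (7.09% of all genes were called higher) and 0 members were lower (5.76%), with a median of 0.57 over the mitochondrial and −0.03 over the nuclear members. MT-ND6 ran between 1582 and 2756 TPM in batch C, against 1068 to 1319 TPM in batch B and 776 to 1086 TPM in batch A. The range of batch C lay above both others, while those of B and A overlapped. The log2 differences were 0.81 ± 0.13 for C minus B (SE, n = 8 and 10 libraries, edgeR adjusted p = 0.000426) and 1.05 ± 0.13 for C minus A (adjusted p = 8.49e-05). MT-ND4 ran between 6886 and 9016 TPM in batch C, 4859 and 6315 TPM in B and 4068 and 5659 TPM in A (0.58 ± 0.13, adjusted p = 0.00582, for C minus B). MT-ND5 ran between 2939 and 4646 TPM in C, 2360 and 3024 TPM in B and 2331 and 2694 TPM in A (0.57 ± 0.11, adjusted p = 0.00186), where C and B overlap in TPM. In CPM these 3 genes had every library of batch C above every library of batch B, as 3.35% of all genes did, and 0 members had the reverse (1.18%). They also lay above every library of batch A, as did 1.94% of all genes. MT-CYB (0.90 ± 0.19, adjusted p = 0.00408), MT-CO1 (0.75 ± 0.15, adjusted p = 0.00313) and MT-ND4L (0.63 ± 0.15, adjusted p = 0.00710) were also higher in C than in B, and the nuclear gene was NDUFA9 (0.52 ± 0.16, adjusted p = 0.0408).

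Of the 6 genes that passed, MT-ND4L, MT-ND4, MT-ND5, MT-ND6 and MT-CYB are neighbours at positions 10470 to 15887 of chrM, and MT-CO1 lies apart from them (the plot by position). MT-ND6 is on the opposite strand to the others. Between these and MT-CO1 (5904 to 7445), the genes MT-CO2, MT-ATP8, MT-ATP6, MT-CO3 and MT-ND3 did not pass in C against B, with differences between −0.06 for MT-ND3 and 0.49 for MT-ATP6. MT-ND1 and MT-ND2 had 0.68 ± 0.34 and 0.37 ± 0.36 (adjusted p = 0.220 and 0.557), so the difference of MT-ND1 was larger than those of MT-ND4L, MT-ND4 and MT-ND5, with a larger SE. The set that passed depended on the clones and the filter: MT-ND1 passed without the clone labelled p65-1, where MT-ND4, MT-ND5 and MT-CYB did not, and MT-ND1 and MT-ATP6 were added with no filter. Within 1 genotype the pattern could be read in CTR and p65. MT-ND6 in untreated CTR was 1694 and 1751 TPM in the clones of batch C and 1192 TPM in that of batch B. In untreated p65 it was 1854 and 2756 TPM in the clones of batch C and 996 TPM in the clone labelled p65-1 of batch A. CTR was the 1 genotype with clones in both B and C, and p65 the 1 with clones in both A and C. In the model each difference between batches also draws on the genotypes shared with the other batch. Without CTR-2, MT-ND5 and MT-ND6 passed in C against B, and without the clone labelled p65-1, MT-CO1, MT-ND1, MT-ND4L and MT-ND6 did. The count ran between 2 and 7 over the clones left out in turn.

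**Figure D5:**
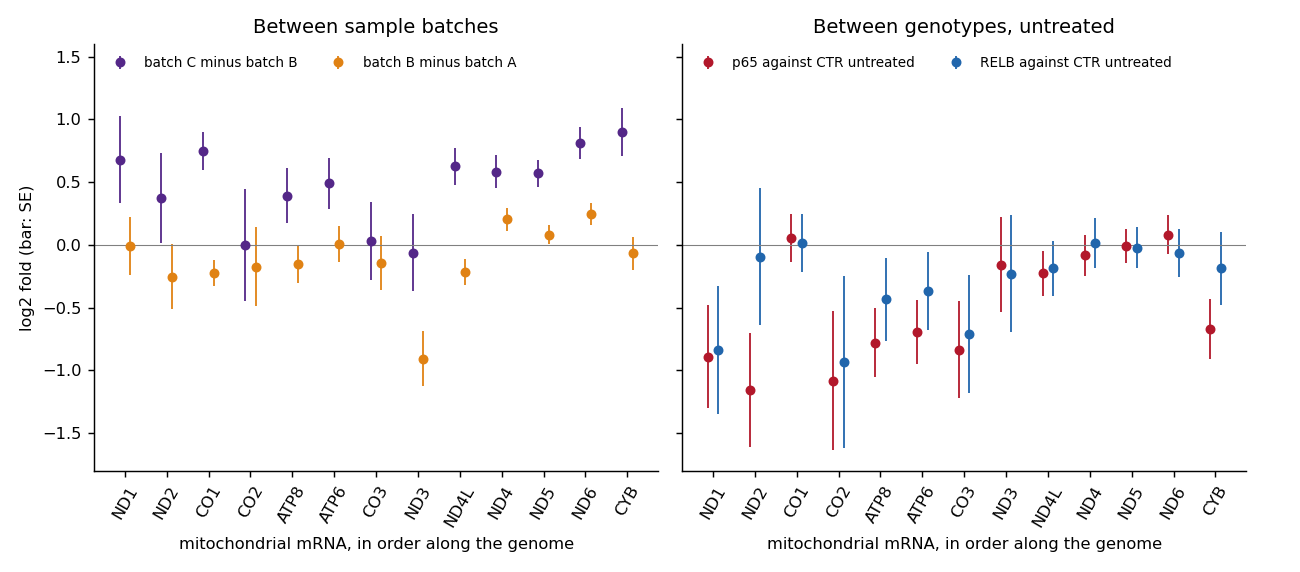
Log2 difference of each mitochondrial messenger RNA, in order along the genome (horizontal axis), between sample batches (left) and between knockout and CTR in untreated cells (right); bars are the model's SE. MT-ND4L to MT-CYB and MT-CO1 are 0.57 to 0.90 higher in batch C than in batch B, while in p65 MT-ND2, MT-CO2 and MT-CO3 lie at −1.15, −1.08 and −0.83 and MT-ND4, MT-ND5 and MT-ND6 near 0.

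Nuclear members were lower in batches B and C than in batch A. In batch B against batch A, 16 of 60 nuclear members and MT-ND3 were lower (3.62% of all genes were called lower) and 0 members were higher (6.44%), with medians of −0.58 over the nuclear and −0.14 over the mitochondrial members. In batch C against batch A, 9 nuclear members and MT-ND3 were lower (5.06%) and 5 mitochondrial members, MT-CO1, MT-CYB, MT-ND4, MT-ND5 and MT-ND6, were higher (5.95%). MT-CYB and MT-ND3 did not pass in C against A in voom with clone as a random effect, where 4 mitochondrial members were called. NDUFA5, an accessory subunit of complex I, ran between 36.8 and 73.6 TPM in batch C, 42.6 and 116 TPM in B and 104 and 127 TPM in A, with C and A apart. The difference was −1.19 ± 0.22 (n = 8 and 10 libraries, edgeR adjusted p = 0.00171), and it was the 1 member with every batch C library below every batch A library (1.32% of all genes). NDUFB2 was 16.7 to 99.8 TPM in batch B and 67.8 to 207 TPM in A (−1.10 ± 0.25, adjusted p = 0.00724). COX7C, a small subunit of complex IV, was 33.3 to 90.2 TPM in B and 63.6 to 203 TPM in A (−1.06 ± 0.27, adjusted p = 0.0172). MT-ND3 was 47.6 to 83.5 TPM in C, 62.6 to 94.3 TPM in B and 61.6 to 367 TPM in A (−0.91 ± 0.22, adjusted p = 0.0101, for B minus A). The model counts both libraries of a clone as independent, which makes these p-values too small. In limma voom with clone as a random effect, which changes the tool as well as the block, 6 nuclear members passed in B against A, 3 in C against A and 0 in C against B. The span over left-out clones was 1 to 33 nuclear members for B against A and 2 to 15 for C against A.

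Other nuclear genes of mitochondrial function were read beside the chain. No member of 6 lists, the nuclear ATP synthase subunits, subunits and carriers outside the symbol rule, assembly factors, mitochondrial RNA handling, mitochondrial DNA replication and regulators of biogenesis, passed edgeR between a knockout and CTR. In untreated p65 and RELB, the 18 ATP synthase subunits, also short, had medians of −0.71 and −0.92, and 17 and 16 of them were lower by sign, whereas those 12 of mitochondrial DNA replication had medians of 0.11 and −0.13. With LPS in CTR, HIF1A, the hypoxia-inducible factor that promotes glycolysis, was higher, at 84.1, 78.3 and 86.9 TPM with LPS against 51.1, 62.4 and 59.5 TPM untreated (0.71 ± 0.15, n = 3 each, adjusted p = 0.0337). It passed in no knockout, nor averaged over the 6 genotypes (adjusted p = 0.597). In p65 it was 71.9, 68.5 and 65.2 TPM with LPS against 77.4, 47.9 and 82.8 TPM untreated. Of the factors that drive nuclear respiratory genes, NRF1 averaged 20.5 TPM (12.1 to 29.3) and PPARGC1A, the coactivator known as PGC-1 alpha, 14.9 TPM (4.84 to 26.5), and TFAM, the activator of mitochondrial transcription, 36.2 TPM (23.1 to 55.9). Between batches C and B, 9 of 31 RNA handling genes were higher and 0 lower, where 7.09% of all genes were higher, and 8 of 18 ATP synthase subunits were lower in B than in A, where 3.62% of all genes were lower.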

How the data were processed

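The labels describe polyadenylated RNA from 28 libraries of U937 clones. Reads were quantified with Salmon 0.11.3 and checked with FastQC 0.11.7 on GRCh38, per the submitters' processing notes. Those notes name no annotation release. The deposited estimated counts are per gene and unscaled, and 41.0 to 47.5% of the nonzero values per library were whole. The TPM are the authors' values, scaled for length and depth, and their table of effective lengths, a score in bases per gene and library, is deposited beside it. Symbols and positions were matched to GENCODE release 29.

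Estimated counts were rounded and tested with edgeR 4.0.16 (R 4.3.3): filterByExpr (minimum count 10, minimum total 15), TMM, a robust quasi-likelihood model of 12 groups with batch as an additive term (14 residual degrees of freedom), and Benjamini-Hochberg adjustment within each of 24 comparisons over 18624 genes, called at 0.05. The 3 comparisons of batches were added after the data had been seen. A prior count of 2 went into log2 CPM. The alternatives changed the tool (DESeq2 1.42.0, or limma 3.58.1 on log2(TPM + 1)), the scaling (DESeq2 size factors, mitochondrial genes left out, or effective lengths as an offset), the filter or the batch term dropped, clones left out in turn, batch C by itself, and clones modelled as random in voom (correlation 0.355). The limma, voom and batch C fits change more than 1 choice each, and batch C by itself left 15675 genes. The same replicate number of a genotype marks 1 clone, and the 2 libraries of a clone deviated together (r = 0.203 to 0.441, 14 clones). No libraries were identical, and replicate libraries correlated at 0.947 to 0.969. Nothing says that the clones were grown separately in time. The main model has no clone term, also for LPS against untreated. Its p-values measure the spread left between libraries, with the 2 libraries of a clone counted as independent, and not the spread between clones alone. The scripts were tested on simulated data.

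Genes named are the 13 mitochondrial members, members that passed, the ends of each main comparison, the highest and lowest nuclear member per complex, the SDH genes and NDUFA4; others were chosen after their values were seen. The members and lists were chosen with earlier results of these data known. Expression cannot tell fewer transcripts per cell from fewer cells. Intervals are not given for counts, and depth is given as the total count per library. Values of 1 nuclear member are not reported here by name, though it is kept in all counts and medians.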

Additional observations from a re-analysis of the deposited data

How the results depend on the processing

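No called value changed sign under the alternatives run, and the knockout counts stayed at 0 except without the filter on low counts and without single clones. Without the filter, the 5 untreated knockout comparisons together called 12 mitochondrial and 62 nuclear members and those with LPS 8 and 29. In p50, p52, p65, cREL and RELB 0.45, 0.411, 2.6, 0.338 and 1.41% of all genes were called untreated. With LPS the shares were 1.05, 0.908, 2.6, 0.952 and 1.14%. The mean of the knockouts called 4 nuclear members untreated (0.701% of all genes). With LPS it called 1 mitochondrial and 7 nuclear members (1.55%). Of the untreated calls, 7 mitochondrial and 35 nuclear members were in p65, where 2.6% of 38219 genes were called. The median SE of the nuclear folds was then 0.23, against 0.41 with the filter, and the prior degrees of freedom were infinite against 5.99. Over left-out clones, the untreated knockouts called 0 to 1 mitochondrial and 0 to 5 nuclear members and those with LPS 0 to 1 nuclear members. MT-CYB, NDUFA6, NDUFB5, SDHB, SDHD and UQCRFS1 passed in p65 untreated without p65-2, and COX7B in p65 with LPS without p65-1 or CTR-2. The shares of all genes called in these fits are not given here. Without RELB-1, which leaves 1 RELB clone, NDUFA5 and NDUFS7 had log2 folds of −1.37 and −1.91 in RELB untreated. The mitochondrial minus nuclear median of the mean knockout was 0.43 untreated and 0.44 with LPS, and −0.22 and −0.21 with no batch term. Over left-out clones it was 0.24 to 0.56 untreated and 0.26 to 0.83 with LPS. The spread of this gap between clones was of similar size, with an SD of 0.48 untreated and 0.35 with LPS on the log2 scale. The cause was not tested.

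Between batches, DESeq2 called 31 nuclear members in B against A and 16 in C against A. No filter gave 38, 29 and, in C against B, 2. The shares of all genes called between batches under the alternatives are not given here. With the replicate block as a random effect in voom there were 6, 3 and 0, and with clone as a fixed replicate block 0 members passed with LPS against untreated. Scaling without mitochondrial genes gave 0 nuclear members in C against B. In B against A, an effective length offset gave 2 mitochondrial members and limma on TPM 3. Without p65-3 and RELB-2, chosen after seeing the data, B against A had 3 mitochondrial and 5 nuclear members, and C against A and C against B had 1 and 2 nuclear members. Over left-out clones the ranges were 0 to 4 mitochondrial and 1 to 33 nuclear for B against A, 2 to 15 nuclear for C against A, and 2 to 7 mitochondrial and 0 to 2 nuclear for C against B. With 2 or 3 clones a group, the SE of the knockout folds limits what could be called.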

Other observations

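COX8C, an isoform of a complex IV subunit known from testis, was listed at a mean of 51.9 TPM (25.6 to 78.2) in these monocytic clones, while the heart and muscle isoforms COX6A2 and COX7A1 were at 0 and 0.33 TPM. CYCS, cytochrome c, averaged 646 TPM. How reads of overlapping genes were assigned is not stated in the labels, and its part in these levels was not tested.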
